A study of Homo sapiens with 4 samples.

Results

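The genes described are *AXIN2*, *NKD1*, *RNF43*, *ZNRF3*, *NOTUM*, *LGR5*, *ASCL2*, *SP5*, *TCF7* and *LEF1*, 10 known direct targets and feedback genes of the Wnt/β-catenin pathway, chosen by symbol and matched through their Ensembl identifiers. All 10 were among the 37515 genes of the count table, and all 10 were among the 14820 genes that passed the filter on low counts and were tested. They were measured by RNA-seq in Caco-2 cells, a human colorectal adenocarcinoma line that takes on features of absorptive enterocytes in culture and is known to carry a truncating mutation of *APC*. The cells were cultured for 15 days in transwells, which give separate access to the apical and the basal side. The comparison set 2 libraries of unstimulated cells, labelled 0 h and given medium alone, against 2 libraries of cells given 60 ng/ml of IFNγ in the basal compartment and collected at 3 h. Since the labels give the unstimulated libraries a time of 0 h and no medium control at 3 h was analysed here, IFNγ and time cannot be told apart. Both groups are the same line with no engineered change, so both carry its *APC* mutation, and no library of *APC*-intact cells was analysed here. The labels do not say whether the 2 libraries of a group came from separate cultures, and the p-values then measure only the spread between these libraries, which may be technical.

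In the Wnt pathway, ligands bind Frizzled receptors with LRP co-receptors and keep β-catenin from being degraded. The β-catenin then enters the nucleus and switches on target genes together with TCF/LEF factors. In cells without Wnt signals, a destruction complex of APC, AXIN, GSK3 and CK1 marks β-catenin for degradation, and *APC* mutations that disable the complex keep the pathway active in most colorectal cancers. Several targets act back on the pathway: some dampen it inside the cell, some remove its receptors from the cell surface, and others mark or maintain the stem cells at the base of intestinal crypts.

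The libraries held 7171455 to 10365346 counts, so that a level of 1 CPM, the unit in which counts are scaled to a common library size, stood for 7.17 to 10.4 counts. Mitochondrial genes took 0.971% to 1.31% of the counts. All 12 intestinal epithelial markers passed the filter on low counts, with a summed level of 7450 and 8164 normalized CPM in unstimulated and 8833 and 9352 in stimulated cells. Of 8 leukocyte markers with counts given, 3 were tested and 0 passed after adjustment (edgeR). At an unadjusted p below 0.05 (edgeR), with no share over all genes taken, 1 was higher. This was *CD14*, with 36 and 34 counts before and 59 and 65 after IFNγ, and *CSF1R* had 57 to 101 counts, while *PTPRC*, which all leukocytes carry, had at most 2 counts in a library. Of 8 fibroblast and endothelial markers 5 were tested and 0 were below an unadjusted p of 0.05, with *COL1A2* and *DCN* at no more than 1 count but *COL1A1* at 638 to 1842 and *COL3A1* at 53 to 117 counts. *COL1A1* made up most of the summed level of this list, at 89.4 to 179 CPM. The part of these markers in the results for the 10 genes was not tested. The summed level of the leukocyte markers ran from 13.6 to 15.1 CPM in unstimulated and from 19.0 to 22.4 CPM in stimulated cells, and that of the fibroblast and endothelial markers from 105 to 200 and from 140 to 181 CPM. The stimulation label was checked on 10 genes known to be induced by IFNγ, of which 9 rose, with summed levels of 93.3 and 99.2 CPM in unstimulated against 1663 and 1500 CPM in stimulated cells.

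The stretches of promoter shown here are those in which a script could look for the letters that TCF/LEF factors are known to recognize, beside the counts of the same genes. RefSeq windows of 300 bases, running from 250 bases before to 50 bases after an annotated transcription start in GRCh38.p14, were held for 4 of the 10 genes: *SP5*, *TCF7*, *RNF43* and *LEF1*. The others were *AXIN2*, *NKD1*, *ZNRF3*, *NOTUM*, *LGR5* and *ASCL2*. The windows were searched on both strands for the core letters of a TCF/LEF site, taken as CTTTGAA, its variant CTTTGAT, its variant CTTTGTA or its variant CTTTGTT, which were found in 13.8% of 35116 windows of the same length. *SP5* and *TCF7* are printed because theirs held a match, and the first *TCF7* window is shown for contrast with the second. Matches are in capitals. Sequences run 5′ to 3′ on the strand of the gene, which is the plus strand for all 3.
SP5, chr2:170715087-170715386: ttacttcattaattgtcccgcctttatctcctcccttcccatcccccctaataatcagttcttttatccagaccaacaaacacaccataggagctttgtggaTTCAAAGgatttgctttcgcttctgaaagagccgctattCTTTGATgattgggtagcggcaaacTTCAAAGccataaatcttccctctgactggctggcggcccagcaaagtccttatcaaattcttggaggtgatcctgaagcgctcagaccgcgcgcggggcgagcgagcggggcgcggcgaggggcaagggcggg
TCF7, second start, chr5:134123368-134123667: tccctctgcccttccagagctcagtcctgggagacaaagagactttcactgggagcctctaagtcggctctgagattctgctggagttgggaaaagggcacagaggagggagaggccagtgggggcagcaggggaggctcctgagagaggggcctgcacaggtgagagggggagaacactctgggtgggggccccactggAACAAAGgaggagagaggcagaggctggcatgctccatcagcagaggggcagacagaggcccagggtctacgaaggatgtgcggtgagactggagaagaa
TCF7, first start, chr5:134115363-134115662: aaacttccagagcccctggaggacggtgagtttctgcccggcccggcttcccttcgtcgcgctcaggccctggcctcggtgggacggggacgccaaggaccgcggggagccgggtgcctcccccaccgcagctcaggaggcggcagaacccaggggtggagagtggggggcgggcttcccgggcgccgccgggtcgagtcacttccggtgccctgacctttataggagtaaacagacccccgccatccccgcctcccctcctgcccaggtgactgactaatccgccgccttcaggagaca

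The *SP5* window held 3 matches, starting 148, 109 and 84 bases before the start site. In *TCF7*, the window of the second annotated start held 1 match, 50 bases before the start, and the window of the first start held 0. The windows of *RNF43* and *LEF1* also held 0. A match is only a run of letters, and its absence says nothing about sites outside the window.

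After 3 h of IFNγ, the level of *AXIN2* was 2.24-fold that in unstimulated cells, *ASCL2* 1.68-fold and *TCF7* 1.45-fold. The levels of *NKD1*, *ZNRF3*, *NOTUM* and *SP5* were between 0.954-fold and 1.07-fold. *LEF1* was at 1.18-fold, *RNF43* at 0.883-fold and *LGR5* at 0.781-fold, none of which passed the test. Of the 10 genes, 1 was called higher and 0 were called lower at an adjusted p below 0.05 and an absolute log2 fold change above 1, where 2.88% of all tested genes were called higher and 4.4% lower. Without the fold change threshold, 3 of the 10 were higher and 0 lower, against 9.02% and 11% of all tested genes. At an unadjusted p below 0.05 the counts were the same, 3 higher and 0 lower, with no share over all genes taken. DESeq2 put 1 of the 10 higher and 0 lower below an adjusted p of 0.05, and it gave no adjusted p for *NOTUM* and *LGR5*. Over all genes DESeq2 put 1046 higher and 1425 lower, of 11659 genes with an adjusted p. The libraries of the 2 groups did not overlap for 4 genes, all 4 higher after IFNγ, and this held for 31.6% of all tested genes in that direction and for 30.8% in the other. The 10 genes had a median log2 fold change of 0.08, beside -0.01 for all tested genes. Summed over the 10 genes, the level was 148.3 and 150.0 CPM in unstimulated and 165.9 and 177.5 CPM in stimulated cells. All other tests are edgeR's quasi-likelihood test with Benjamini-Hochberg adjustment over all tested genes. In bulk RNA, fewer cells of a type and less RNA per cell cannot be told apart.

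**Figure D1:**
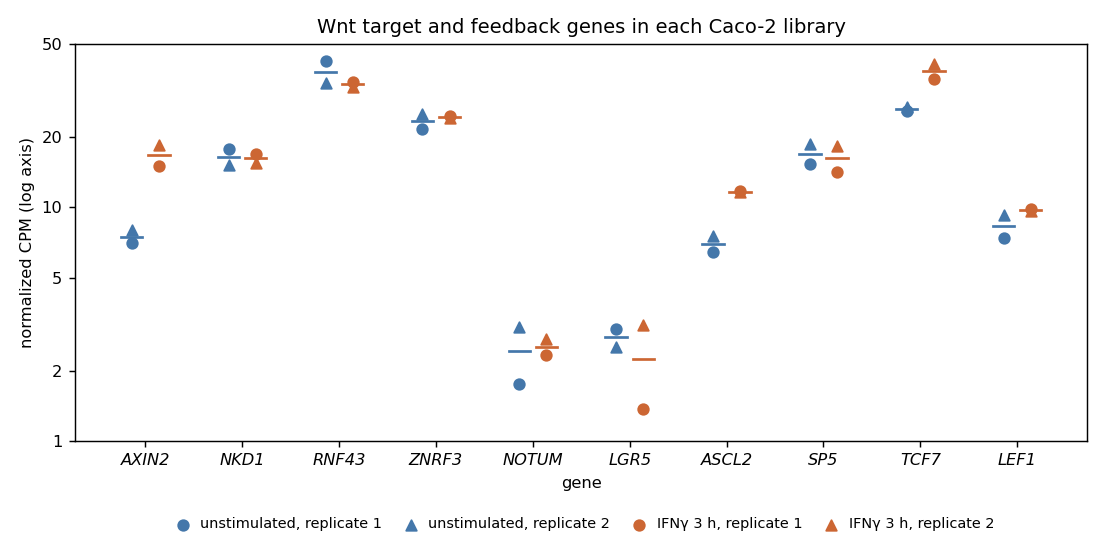
Level of each of the 10 genes in each library, in normalized CPM on a log axis, with unstimulated libraries in blue and IFNγ libraries in orange, circles for replicate 1, triangles for replicate 2 and a line at the mean of 2 libraries. The 2 IFNγ points lie above both unstimulated points for *AXIN2*, *ASCL2*, *TCF7* and *LEF1*, and the groups overlap for the other 6 genes.

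Among the feedback inhibitors that act inside the cell, *AXIN2* rose and *NKD1* gave no detectable difference. *AXIN2* (ENSG00000168646) encodes a scaffold of the destruction complex and is widely used as a reporter of β-catenin activity. It lies on the minus strand of chromosome 17 at 63524681 to 63557766 (GRCh37, like all gene coordinates given here). It had 72 and 57 counts in unstimulated cells and 154 and 136 after IFNγ. Scaled to library size, these were 7.01 and 7.99 CPM against 15.0 and 18.6 CPM, and the lower stimulated library stood clear of the higher unstimulated library. Means were 7.50 ± 0.689 and 16.8 ± 2.53 CPM (SD, n = 2 each), and the log2 fold change was 1.16 with a standard error of 0.207, a 95% interval of 0.68 to 1.64 and an adjusted p of 0.00931 (edgeR). By the size of its increase it was number 389 of the 14820 tested genes. Of its exon bases, 25.3% are shared with an overlapping gene on the same strand, ENSG00000266076, which had 0 counts in every library. How reads in shared bases were counted is not given, so the 0 does not show whether such reads were lost from *AXIN2*.

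The call of *AXIN2* depended on the fold change threshold. A fit with a library left out has 1 library in that group, which is then assumed to vary like the other group, so that its p-values are a weak check. With replicate 2 of the IFNγ libraries left out its log2 fold change was 0.98, just under the threshold, at an adjusted p of 0.0291, and with the trend on GC content and length removed it was 0.99 at an adjusted p of 0.0140 (edgeR). *NKD1* (ENSG00000140807), on chromosome 16 at 50582307 to 50683160, encodes a protein that binds Dishevelled and dampens the signal. Its counts of 183 and 108 before and 174 and 114 after IFNγ came to 17.8 and 15.1 against 16.9 and 15.6 CPM. Both stimulated libraries fell within the range of the unstimulated libraries. The log2 fold change of *NKD1* was -0.02, with an interval of -0.43 to 0.38 (edgeR, adjusted p = 0.94). This interval ends below the 1.16 fitted for *AXIN2*, and the 2 genes were not tested against each other.

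The 2 paralogous E3 ubiquitin ligases that remove Frizzled receptors from the cell surface, *RNF43* and *ZNRF3*, did not pass the test in either direction. *RNF43* (ENSG00000108375; chromosome 17, 56431037 to 56494956, minus strand) had 433 and 242 counts before and 354 and 241 after IFNγ, the largest counts of the 10 genes in unstimulated cells. Its levels were 42.2 and 33.9 CPM in unstimulated and 34.4 and 32.9 CPM in stimulated cells, and the groups overlapped by a narrow margin. The log2 fold change was -0.18 ± 0.156 (standard error), with an interval of -0.54 to 0.19 and an adjusted p of 0.455 (edgeR). A readthrough gene that is not in the count table shares 4326 of the 6329 exon bases of *RNF43* in the annotation used here.

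*ZNRF3* (ENSG00000183579; chromosome 22, 29279560 to 29453476) had 222 and 179 counts before and 253 and 176 after IFNγ. In CPM these were 21.6 and 25.1 against 24.6 and 24.0, so that the stimulated libraries again lay inside the unstimulated range. Its log2 fold change was 0.06 ± 0.155 (standard error), with an interval of -0.30 to 0.43 (edgeR, adjusted p = 0.804).

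*NOTUM* and *LGR5* were the least abundant of the 10 genes and the least precisely measured. *NOTUM* (ENSG00000185269; chromosome 17, 79910383 to 79919716, minus strand) encodes a secreted enzyme that removes the lipid from Wnt ligands and so inactivates them. It had 18 and 22 counts before and 24 and 20 after IFNγ, which were 1.75 and 3.08 against 2.33 and 2.73 CPM, with both stimulated libraries between the unstimulated ones. The interval of its log2 fold change of 0.09 ran from -0.86 to 1.04 (edgeR, adjusted p = 0.895), and these counts do not tell apart changes within that range.

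*LGR5* (ENSG00000139292; chromosome 12, 71833578 to 71980090), the receptor for R-spondins and the classical marker of crypt stem cells, had 31 and 18 counts before and 14 and 23 after IFNγ. The 2 stimulated libraries, at 1.36 and 3.14 CPM, enclosed the unstimulated ones at 3.02 and 2.52 CPM. Its log2 fold change was -0.36 with an interval of -1.43 to 0.72 (edgeR, adjusted p = 0.623). Left without replicate 1 of the IFNγ libraries the estimate was 0.15, and without replicate 2 it was -1.05.

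Of the 4 transcription factors, *ASCL2* and *TCF7* rose, by less than the threshold of the call, and *SP5* and *LEF1* did not pass the test. *ASCL2* (ENSG00000183734; chromosome 11, 2289728 to 2291818, minus strand) encodes a basic helix-loop-helix factor that maintains intestinal stem cells. Its counts were 66 and 54 before and 121 and 85 after IFNγ. The unstimulated levels of 6.43 and 7.57 CPM were both below the stimulated levels of 11.8 and 11.6 CPM. The log2 fold change of *ASCL2* was 0.75 ± 0.209 (standard error) with an interval of 0.26 to 1.24, and the adjusted p of 0.0445 lay close to the threshold (edgeR). It was no longer below 0.05 with any of the 4 libraries left out, where adjusted p ran from 0.0784 to 0.189, nor with DESeq2 (0.157). *ASCL2* has the highest GC content of the 10 genes, 69.6%, and with the trend on GC content and length removed its log2 fold change was 0.47 at an adjusted p of 0.184 (edgeR).

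*TCF7* (ENSG00000081059; chromosome 5, 133450372 to 133487556) encodes TCF1, a DNA-binding partner of β-catenin that also exists as a short form lacking the β-catenin binding region. It had 265 and 192 counts before and 366 and 301 after IFNγ. The unstimulated libraries stood close together, at 25.8 and 26.9 CPM, and the stimulated ones at 35.6 and 41.1 CPM, all above them. Its log2 fold change was 0.54 ± 0.146 (standard error), with an interval of 0.20 to 0.88 and an adjusted p of 0.0403 (edgeR). The adjusted p was 0.0832 with DESeq2 and 0.0902 with the GC and length trend removed, and leaving out any library other than replicate 1 of the IFNγ libraries put it between 0.0994 and 0.182. Of its exon bases, 210 lie opposite exons of *SKP1*, which had 963 to 1294 counts and a log2 fold change of -0.03. Counts per gene do not separate the forms that start at the promoters printed above.

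*LEF1* (ENSG00000138795; chromosome 4, 108968701 to 109090112, minus strand), a second partner of β-catenin of the same family, had 76 and 66 counts before and 101 and 71 after IFNγ. Its unstimulated libraries, at 7.40 and 9.25 CPM, were both below the stimulated ones at 9.82 and 9.69 CPM, yet the gap between the groups was narrower than the gap within the unstimulated pair. The log2 fold change was 0.24 with an interval of -0.27 to 0.75 (edgeR, adjusted p = 0.478).

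*SP5* (ENSG00000204335; chromosome 2, 171571847 to 171574588), a zinc finger repressor and an established direct target of the pathway, whose window held the 3 TCF/LEF core matches, had 157 and 133 counts before and 145 and 134 after IFNγ. The levels were 15.3 and 18.6 CPM in unstimulated and 14.1 and 18.3 CPM in stimulated cells, and the 2 groups covered nearly the same range. Its log2 fold change was -0.07 with an interval of -0.54 to 0.40 (edgeR, adjusted p = 0.839).

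**Figure D2:**
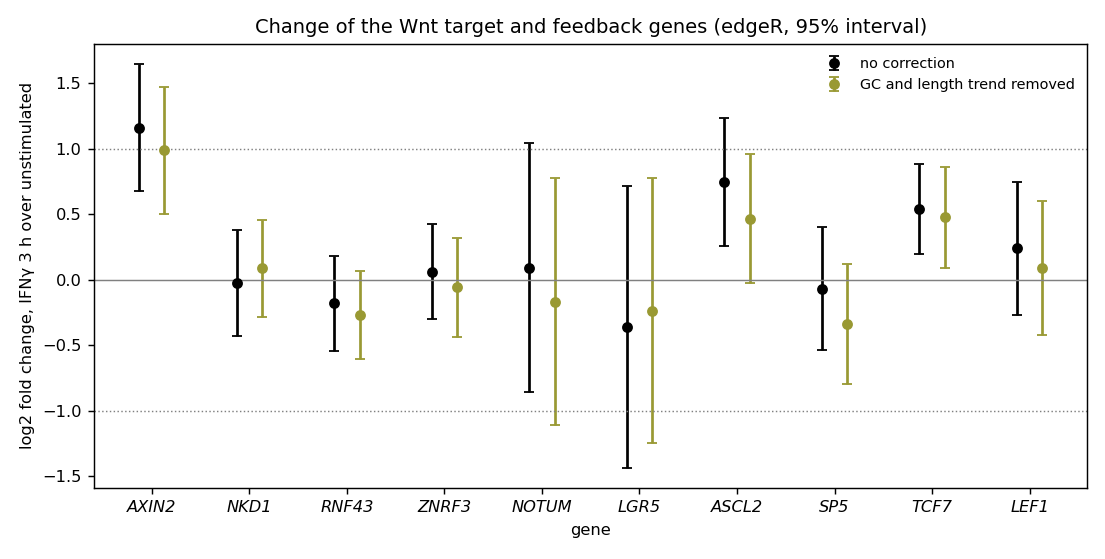
Log2 fold change of each of the 10 genes, IFNγ 3 h over unstimulated, with its 95% interval from edgeR, without correction (black) and with the trend on GC content and length removed (olive). The black intervals of *AXIN2*, *ASCL2* and *TCF7* lie above 0, dotted lines mark the log2 fold change of 1 that a call needs, and only the *AXIN2* estimate without correction lies above it.

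Per kilobase of annotated exon, the order of the levels in unstimulated cells ran from *SP5* (8.18 CPM per kilobase) through *RNF43* (6.01), *ASCL2* (4.71), *ZNRF3* (3.34), *TCF7* (2.61), *LEF1* (1.55), *AXIN2* (1.44), *NKD1* (0.949) and *NOTUM* (0.830) to *LGR5* (0.530), each value in CPM per kilobase. Neighbours whose libraries overlapped in this order were *LEF1* with *AXIN2* and *NKD1* with *NOTUM*. After IFNγ, *ASCL2* stood at 7.87 CPM per kilobase, level with *SP5* at 7.81, and *AXIN2* at 3.23 had passed *LEF1* at 1.82 and overlapped *ZNRF3* at 3.48. *NKD1*, *NOTUM* and *LGR5* kept the last places. The lengths are those of all annotated exons of a gene together, and they are longest for *NKD1*, with 17359 bases, and *TCF7*, with 10093. If part of these exons is not transcribed in these cells, the values per kilobase given here are too low.

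The changes of all tested genes followed their GC content, and the values of the 10 genes are given here beside this trend. The Spearman correlation between GC content and log2 fold change was 0.43 across 14518 genes, which are not independent replicates, and the median log2 fold change rose from -0.43 in genes under 40% GC to 0.22 in genes over 60% GC. Of the 10 genes, 9 have a GC content above 50%, the exception being *LGR5* with 43.8%, whereas the median of all tested genes is 47.9%. *AXIN2*, with 53.1% GC, and *TCF7*, with 54.9%, belong to the range of 50% to 60%, where the median was 0.17. *ASCL2*, *SP5* (66.3%) and *NOTUM* (65.7%) belong to the range above 60%. The changes also followed exon length, with a median log2 fold change of 0.10 in genes under 3 kilobases and -0.26 in genes over 10 kilobases. *NKD1*, with 17359 exon bases, and *TCF7*, with 10093, belong to the longest range. Removing the trend on GC content and length turned the calls over all genes from 427 higher and 652 lower to 409 higher and 317 lower. It turned the estimates of *ZNRF3* to -0.06, of *NOTUM* to -0.17 and of *NKD1* to 0.09, none of which passed the test in either form. Without a change of direction, *SP5* moved from -0.07 to -0.33, *LEF1* from 0.24 to 0.09, *RNF43* from -0.18 to -0.27 and *LGR5* from -0.36 to -0.24. These also passed in neither form. GC content and length were removed together, and their separate parts in these shifts were not tested. The part of the GC and length trends in the changes of *AXIN2*, *ASCL2* and *TCF7* was not tested beyond this removal.

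**Figure D3:**
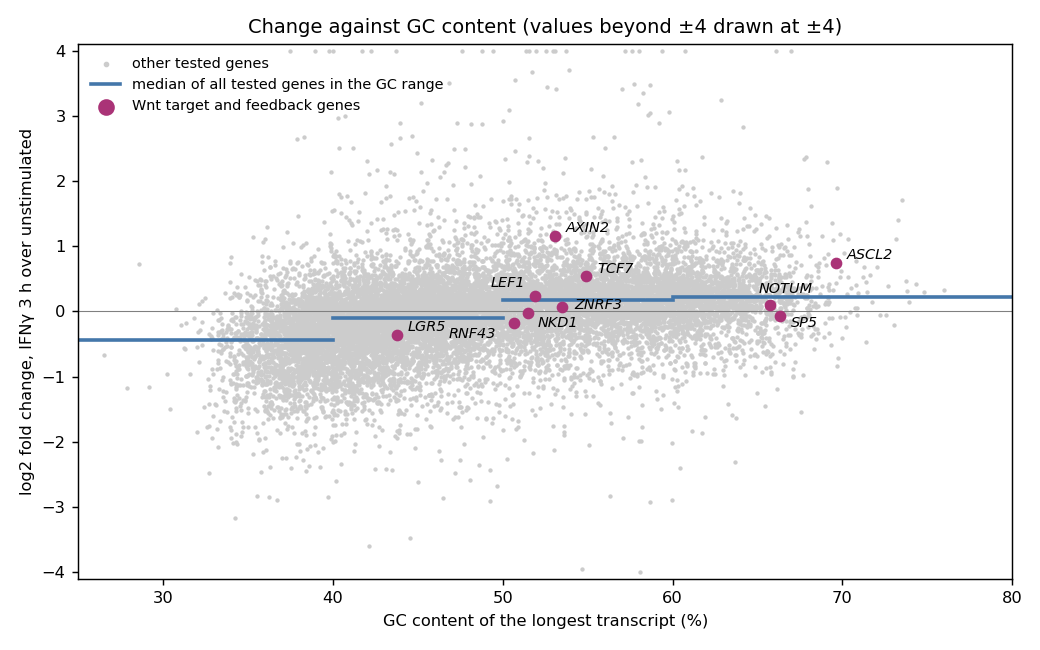
Log2 fold change, IFNγ 3 h over unstimulated, of each tested gene (grey points) against the GC content of its longest transcript in percent, with the median in 4 ranges of GC content (blue lines) and the 10 genes in purple. The blue lines climb from -0.43 to 0.22, and *AXIN2* and *ASCL2* lie above the line of their range while *SP5* lies below it.

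Around the 10 genes, 107 further genes of the pathway were found in the table, of 110 listed in 6 groups. Of these, 71 were tested, 6 were called higher and 2 lower, and their median log2 fold change was 0.08. The other 36 were not tested, with no count above 20 in any library. These 6 lists were drawn up for this comparison with earlier results of the same libraries known. For the counts of each list, 2.88% of all tested genes were called higher and 4.4% lower. At an adjusted p below 0.05 alone, 9.02% were higher and 11% lower.

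Of the ligands and the proteins that secrete them, 8 of 24 in the table were tested and 0 were called by edgeR or by DESeq2. *WLS*, the carrier that takes Wnt ligands to the cell surface, and *WNT11*, a ligand of the non-canonical branch, had the highest levels in unstimulated cells, and both rose below the fold change threshold. *WLS* went from 72.3 and 78.3 to 103 and 113 CPM, a log2 fold change of 0.52 with an adjusted p of 0.0245 (edgeR). *WNT11* went from 38.6 and 35.6 to 71.0 and 75.3 CPM, a log2 fold change of 0.98 with an adjusted p of 0.0035 (edgeR). These were the 2 ligand or secretion genes that passed at an adjusted p below 0.05.

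Of the receptors, 12 of 16 were tested and 0 were called by either tool. The co-receptor *LRP5* had 331 and 318 CPM in unstimulated and 327 and 360 CPM in stimulated cells, a log2 fold change of 0.08 (edgeR, adjusted p = 0.643). *FZD5*, a Frizzled receptor of the intestinal epithelium, rose from 184 and 174 to 227 and 254 CPM (log2 fold change 0.42, adjusted p = 0.0409). The 3 receptors that fell did so by less than the fold change threshold, and these are named after their values were seen: the co-receptor *LRP6* (log2 fold change -0.69), *FZD4* (-0.65) and the receptor tyrosine kinase *ROR1* (-0.61). Their GC contents were 41.0%, 46.2% and 44.2%, below the median of all tested genes. Of the antagonists, 6 of 12 were tested and 0 were called by either tool. *KREMEN1*, which helps DKK proteins to clear LRP co-receptors, rose from 48.4 and 44.3 to 74.0 and 89.1 CPM (log2 fold change 0.81, adjusted p = 0.00877), while *DKK3* had 12.8 and 17.1 against 13.2 and 17.9 CPM. *DKK1*, also an antagonist, was counted in the list of other targets and is named after its values were seen. It had 62.6 and 102 against 71.3 and 196 CPM (log2 fold change 0.70, edgeR adjusted p = 0.293), with its stimulated libraries far apart.

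All 16 genes of the destruction complex and Dishevelled list were tested, with 1 called higher and 2 lower. *AMER1*, which recruits APC and AXIN to the membrane, rose from 25.2 and 23.0 to 68.2 and 66.3 CPM, with a log2 fold change of 1.48 and a standard error of 0.133 (edgeR, adjusted p = 0.00124). *TNKS* and *TNKS2*, the tankyrases that mark AXIN proteins for degradation, both fell. *TNKS* had 114 and 96.1 CPM before and 48.4 and 37.8 after IFNγ (log2 fold change -1.28, adjusted p = 0.00334), and *TNKS2* had 85.4 and 83.4 against 40.7 and 41.5 CPM (-1.04, adjusted p = 0.00239). The groups of all 3 genes were far apart relative to the spread within them. Both tankyrases have a low GC content, 43.3% and 41.5%, and *TNKS* has 13.9 kilobases of exon and *TNKS2* 6.24. With the GC and length trend removed, the log2 fold changes of *TNKS* and *TNKS2* were -0.94 and -0.77. Both were still below an adjusted p of 0.05 (edgeR) but no longer calls. The separate parts of GC content and length in these shifts were not tested. At an adjusted p below 0.05 alone, *CSNK1D* (0.56) was also higher and *DVL2* (-0.70) also lower, both named after their values were seen.

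*APC* itself was at 56.5 and 54.4 CPM in unstimulated cells and at 54.9 and 21.8 CPM after IFNγ, with a log2 fold change of -0.51 and an interval of -1.34 to 0.31 (edgeR, adjusted p = 0.342). The 2 stimulated libraries differed from each other by more than the groups did. *APC* is named after its values were seen, because it is the gene mutated in this line, and the level of its transcript does not show the mutation.

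All 14 genes of the β-catenin and nuclear partner list were tested, and 0 passed edgeR's test in either direction, with 0 called by DESeq2. At an unadjusted p below 0.05 (edgeR), 1 was higher and 2 lower, with no share over all genes taken. *CTNNB1*, the gene of β-catenin, had 165 and 182 CPM before and 179 and 190 after IFNγ, a log2 fold change of 0.09 with an interval of -0.18 to 0.36 (edgeR, adjusted p = 0.628). The co-activator *BCL9L* had 186 and 169 against 201 and 202 CPM, with a log2 fold change of 0.18 (adjusted p = 0.289). RNA levels do not show the amount or the location of β-catenin protein.

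Of 25 other genes reported as β-catenin targets, 15 were tested, 5 were called higher and 0 lower, beside 2.88% and 4.4% of all tested genes. *MYC*, the growth regulator, rose from 50.2 and 66.0 to 387 and 459 CPM, with a log2 fold change of 2.87 and a standard error of 0.170 (edgeR, adjusted p = 0.000287). *CCND1*, which drives cells into the cycle, rose from 207 and 225 to 492 and 583 CPM (log2 fold change 1.31, adjusted p = 0.00148). The Notch ligand *JAG1* rose from 56.6 and 56.7 to 134 and 159 CPM (1.37, adjusted p = 0.00145), and the transcription factor *ETS2* from 31.6 and 29.0 to 72.1 and 76.3 CPM (1.29, adjusted p = 0.00154). *SOX9*, a factor of crypt progenitor cells, rose from 45.1 and 55.3 to 95.6 and 113 CPM (1.06, adjusted p = 0.00464). All 5 are known to respond to many other signals as well. With the GC and length trend removed, *SOX9* was at 0.90 and no longer a call.

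**Figure D4:**
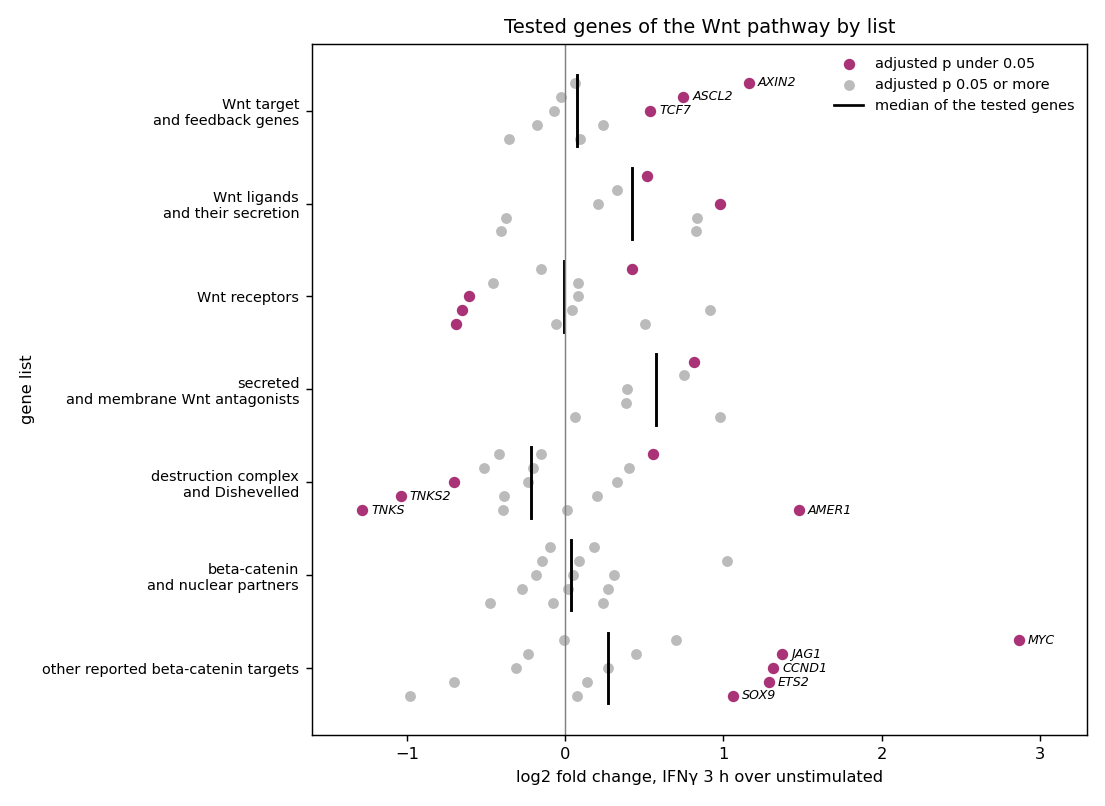
Log2 fold change, IFNγ 3 h over unstimulated, of each tested gene in the list of 10 target and feedback genes and in the 6 other pathway lists, with the median of each list as a black bar and genes at an adjusted p below 0.05 in purple. The target and feedback genes have their median at 0.08, whereas *MYC* (2.87) and *TNKS* (-1.28) lie toward the edges of the plot, with *AMER1* (1.48) between them.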

How the data were processed

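RNA-seq was carried out on total RNA of 4 Caco-2 libraries (mirVana isolation, TruSeq preparation). Raw read counts for each Ensembl gene were deposited by the authors for every library separately. The submitters' processing notes name HISAT 0.5.1 and HTSeq 0.6.1p1. The genome build, the annotation and the handling of strand are not given in the sources used here, and genes that overlap on opposite strands cannot be told apart. Gene positions, exon lengths and GC content came from GENCODE 44 mapped to GRCh37, which need not be the annotation of the counts. Replicates of a group differed by more than counting noise (chi-square per degree of freedom 7.47 and 8.56).

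Counts were tested in R 4.3.3 with edgeR 4.0.16 (glmQLFit, glmQLFTest), TMM scaling, the default filter on low counts, 2 libraries per group and no block. Benjamini-Hochberg adjustment covered all 14820 tested genes. A call needed an adjusted p below 0.05 and an absolute log2 fold change above 1, and "passed", "rose" and "fell" refer to an adjusted p below 0.05. Normalized CPM are counts scaled to a common library size with the TMM factors, and intervals are 95% intervals from the quasi-likelihood fit. The fit was tested on simulated data. Alternatives were other scalings, 2 other filters on low counts, DESeq2 1.42.0, the replicate block, removal of a loess trend on GC content and length (span 0.3), each library left out in turn and no fold change threshold. Of the other pathway lists, the genes named were those called, up to 6 per list, and in lists without a call the 2 tested genes with the highest unstimulated CPM. The 10 genes, the lists and the tests were chosen with earlier results of these data known.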

Additional observations from a re-analysis of the deposited data

How the results depend on the processing

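With 2 libraries per group and 7.17 to 10.4 counts per CPM, precision was lowest for *NOTUM* and *LGR5*, for which DESeq2 gave no adjusted p. Under the 9 alternatives that kept all libraries, the log2 fold change of *AXIN2* was 0.98 to 1.20 with an adjusted p of at most 0.0140, and leaving out libraries, which leaves 1 in a group and takes the spread from the other group, gave 0.98 to 1.30. The number of the 10 genes called higher was 0 with the GC and length trend removed, with or without the replicate block, 3 with no fold change threshold and 0 to 1 with a library left out. The number at an adjusted p below 0.05 was 1 with DESeq2 or the trend removed and 1 to 2 with a library left out. *ASCL2* also missed this threshold with library size only (0.70, adjusted p 0.0515) and with the trend removed in the replicate block (0.47, 0.0691). The direction turned for genes that did not pass the test: *NKD1* was 0.0158 with upper quartile scaling, 0.0876 with the trend removed and 0.0853 with the block as well, *ZNRF3* -0.0584 and, with the block, -0.0473, and *NOTUM* -0.17 and, with the block, -0.14. Leaving out libraries gave ranges of -0.13 to 0.10 for *NKD1*, -0.0442 to 0.17 for *ZNRF3*, -0.29 to 0.52 for *NOTUM*, -0.28 to 0.10 for *SP5*, -1.05 to 0.15 for *LGR5* and 0.0334 to 0.28 for the median of the 10 genes. The median was 0.28 without replicate 2 of the unstimulated libraries. The cause of these shifts was not tested.

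Ligand and secretion genes called higher were 1 with upper quartile scaling or no filter on low counts, 2 with no fold change threshold and 0 to 1 with a library left out. Receptors called higher were 1 with no fold change threshold and 0 to 1 with a library left out, and 3 were lower with no fold change threshold. Antagonists called higher were 1 with no fold change threshold. Destruction complex genes called higher were 2 with no fold change threshold, and those called lower were 1 with upper quartile scaling and 0 with the trend removed, with or without the block. Nuclear partners called higher were 1 with no filter or with the trend removed in the block, and 0 to 1 with a library left out. Other targets called lower were 0 to 1 with a library left out.

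Replicate numbers are shared by the groups in the labels, but nothing says what a number stands for. Deviations from the group means correlated at 0.415 between libraries of the same number. With 2 libraries per group the 2 deviations are exact opposites, so the crossed value of -0.415 follows from this and adds nothing. Replicate 1 held 9990952 counts in unstimulated and 10365346 in stimulated cells, and replicate 2 held 7171455 and 7529914. The part of depth in this correlation was not tested. With the number as a replicate block, *AXIN2* was 1.15 (adjusted p 0.00207), *ASCL2* 0.75 (0.0178) and *TCF7* 0.53 (0.0115), and calls over all genes were 492 higher and 896 lower. It changed no call among the 10 genes. Without replicate 1 of the IFNγ libraries, calls over all genes were 445 higher and 1239 lower.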

Other observations

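Of the 12 intestinal epithelial markers, 4 rose and 1 fell in the same libraries, beside 9.02% and 11% of all tested genes. The intestinal transcription factor *CDX2* went from 178 and 177 to 409 and 406 CPM (log2 fold change 1.20, adjusted p = 0.00117) and the keratin gene *KRT8* from 878 and 993 to 1530 and 1821 CPM (0.84, adjusted p = 0.00566). The keratin gene *KRT18* (0.88, adjusted p = 0.00873) and the brush border enzyme gene *ALPI* (0.45, adjusted p = 0.0314) rose as well. The gene of another brush border enzyme, sucrase-isomaltase, *SI*, went from 419 and 439 to 258 and 134 CPM (-1.13, adjusted p = 0.0256), and its 2 stimulated libraries stood far apart. These genes were named after their values were seen, all with edgeR's quasi-likelihood test. *SI* has a GC content of 38.3%, in the range where the median log2 fold change of all tested genes was -0.43.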
